A study of Bos taurus with 6 samples.

Results

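The genes described here encode the frizzled receptors, the cell surface receptors for Wnt proteins. The rule named 10 genes, FZD1 to FZD10, by symbol, and 9 of them were found in both deposited tables among the 19163 genes of the count table. FZD9 had no line in either table and was not analysed here. The cells were F7, a Holstein Friesian bovine line of pluripotent stem cells from IVF embryos, so all libraries come from 1 line. In MC-F7 (named 1M-F7 in the labels) the cells grew on mouse embryonic fibroblasts (MEFs) treated with mitomycin C, which are alive but do not divide. In MT-F7 they grew on MEFs fixed with methanol, which are dead. Each group had 3 libraries of total RNA, and the series description gives 15 passages for both groups. Both groups were kept in a medium with recombinant human FGF and IWR1, an inhibitor of the classical WNT pathway that acts below the receptors by stabilising AXIN. According to the methods, the medium was changed every day for MC-F7 and every other day for MT-F7, so the feeder and the feeding interval cannot be told apart. Cells were held on gelatin for a short time before extraction and the floating cells were taken, and MC-F7 was the group grown with live feeder cells. The paper reports that a smaller share of reads mapped to cattle in MC-F7 than in MT-F7. It proposes that fixed feeders left less feeder contamination. The part of mouse reads in the counts of either group was not tested.

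Frizzled receptors span the membrane with a bundle of helices and bind Wnt through a cysteine-rich domain outside the cell. With the co-receptors LRP5 or LRP6 they recruit dishevelled proteins and stabilise beta-catenin, and with ROR1, ROR2 or RYK they serve beta-catenin independent signaling and planar cell polarity. By sequence the family falls into FZD1, FZD2 and FZD7, into FZD5 and FZD8, into FZD3 and FZD6, and into FZD4, FZD9 and FZD10. Pluripotent stem cells and the early neural plate are known to express several frizzleds at once.

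The libraries held 21958386 to 24933430 counts on genes, and 3 counts, taken as the smallest detectable amount, equal 0.12 to 0.137 counts per 1000000 (CPM). Such limits cover counting error only. The labels name no sequencing batch, and nothing states that separate cultures gave the 3 libraries of a group, so p values may measure technical spread only. The paper's statistics section describes its data as means of at least 3 technical replicates, and does not say whether this covers the libraries. Genes of the mitochondrial genome took 16.3% to 28.3% of the counts, most of all in replicate 3 of either group. POU5F1 and NANOG, which define pluripotent cells, were present in every library, and SOX2 was not analysed here. Of 10 pluripotency markers 6 were in the count table, and all 6 were tested. Of these, 5 were lower in MT-F7 and none was higher (edgeR's quasi-likelihood test, adjusted p under 0.05). Of all tested genes, 11.3% were lower and 11.9% were higher. The summed level of the pluripotency markers was 1345 to 2014 CPM in MC-F7 and 738 to 854 CPM in MT-F7. Their median log2 fold change was -1.20. POU5F1 made up the largest part of the difference in the sum, which without it was 520 to 597 CPM in MC-F7 and 252 to 297 CPM in MT-F7.

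All 9 receptors passed the filter on low counts. In MT-F7, 3 of them rose (FZD5, FZD8 and FZD1), 2 fell (FZD10 and FZD6) and 4 did not pass the test (FZD2, FZD3, FZD4 and FZD7). The test was edgeR's quasi-likelihood test on the raw counts of all 13001 tested genes, two-sided, with a threshold of 0.05 on the Benjamini-Hochberg adjusted p. The 5 calls among 9 receptors are 55.6%, where 23.2% of all tested genes were called, 11.9% higher and 11.3% lower. All 5 called receptors changed by more than 1 on the log2 scale, and 11.5% of all tested genes were both called and changed by more than 1. The median absolute log2 fold change was 1.06 over the receptors and 0.34 over all tested genes, while the median signed log2 fold change was near 0 for both (-0.0035 and -0.0026). The 5 calls held in each of the 17 other ways of processing that were tried. In 7 receptors the groups did not overlap in CPM, as in 40% of all tested genes. In bulk RNA, fewer cells that express a receptor and less RNA of it per cell cannot be told apart. The paper lists FZD1, FZD5 and FZD8 among its changed genes from the same libraries, so these 3 are no independent evidence of a direction.

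**Figure D1:**
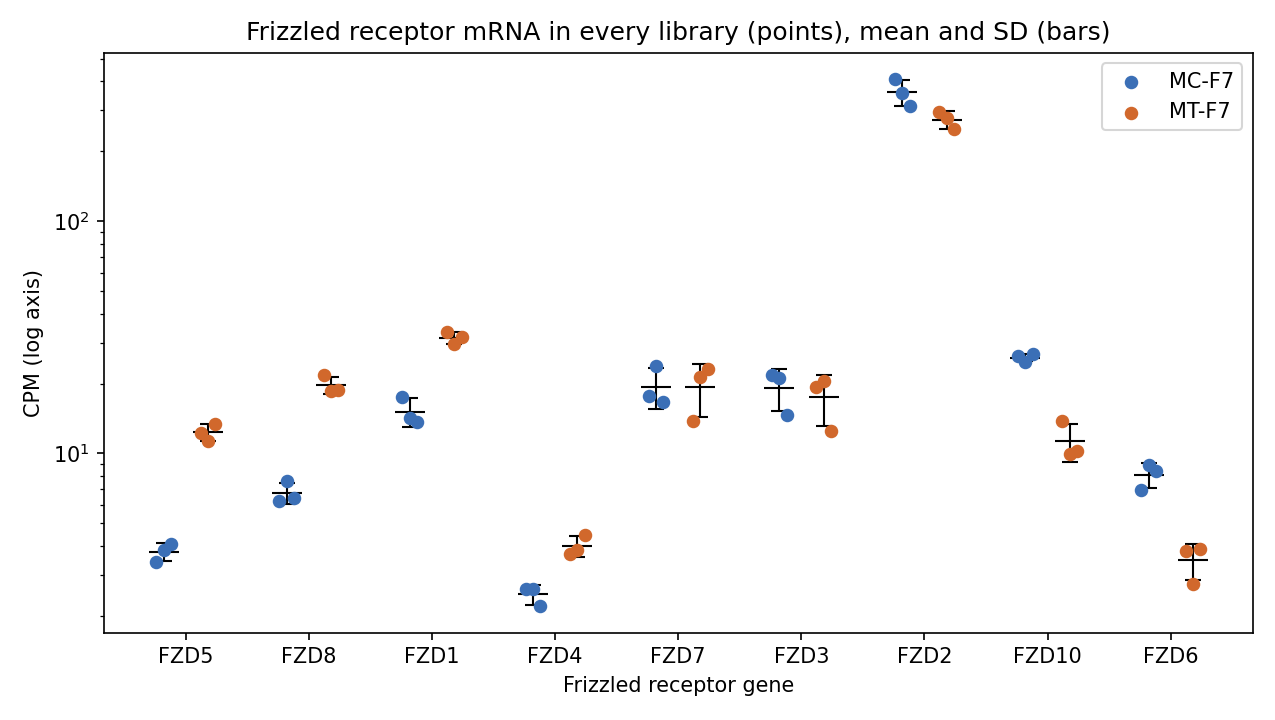
CPM (log axis) of the 9 analysed frizzled receptors in every library, with blue points for MC-F7, orange points for MT-F7, and bars for the mean and SD of 3 libraries. CPM are not per length, so heights compare libraries and not genes. FZD5, FZD8 and FZD1 are higher in every MT-F7 library, and FZD10 and FZD6 are lower in every MT-F7 library.

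FZD2 was by far the most abundant receptor. Levels of different genes were compared only per length, as the deposited TPM rescaled to 1000000 per library. On this scale the mean of FZD2 over 3 libraries was 249 ± 35.7 TPM (SD) in MC-F7 and 201 ± 24.7 TPM in MT-F7, which places it at rank 403 of 21063 genes. The other 8 receptors had means between 1.62 and 12.6 TPM over the 6 libraries. By these means FZD2 was 14.5 times the next receptor in MC-F7, which was FZD10, and 15.3 times the next one in MT-F7, which was FZD8. The gene models behind these values were not of 1 length. Relative to FZD2, the model length implied by the ratio of count to TPM ran from 0.934 for FZD5 to 2.31 for FZD6, and reads outside a model were not counted.

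By mean TPM, the order below FZD2 differed between the groups. In MC-F7 it was FZD10 (17.2 ± 0.0728 TPM), FZD7, FZD3, FZD1, FZD8, FZD5, FZD6 and FZD4 (1.2 ± 0.153 TPM). The ranges of FZD7 and FZD3, of FZD1 and FZD8, and of FZD5 and FZD6 overlapped, so these neighbours could not be ordered. In MT-F7 it was FZD8 (13.1 ± 1.34 TPM), FZD7, FZD1, FZD5, FZD3, FZD10, FZD4 and FZD6 (1.09 ± 0.165 TPM). There the range of FZD7 overlapped with those of FZD8, FZD1, FZD5, FZD3 and FZD10, that of FZD3 also with those of FZD1, FZD5 and FZD10, and that of FZD5 with that of FZD10, so most of this order could not be set. In MC-F7 the range of FZD10 lay below FZD2 and above all other receptors, while in MT-F7 it lay below FZD8 and FZD1 and overlapped with FZD7, FZD5 and FZD3.

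FZD5 and FZD8 are the closest relatives of each other in the family, and FZD5 is known for its part in eye and forebrain development. FZD5 (Entrez gene 538536) had 3.41, 3.86 and 4.07 CPM in the MC-F7 libraries and 12.2, 11.3 and 13.4 CPM in the MT-F7 libraries. Every MT-F7 library was above every MC-F7 library by a wide margin. The log2 fold change was 1.7 (standard error 0.196, adjusted p = 5.4e-05), which is 3.26-fold with a 95% interval from 2.43 to 4.37. These values rest on 77, 93 and 87 counts for MC-F7 against 307, 293 and 316 for MT-F7. Its absolute log2 fold change was larger than that of 95.1% of all tested genes.

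FZD8 (616913) had 6.24, 7.59 and 6.45 CPM in MC-F7 and 21.7, 18.6 and 18.9 CPM in MT-F7. Again the groups were far apart, and the spread inside each was small. It rose by 1.54 on the log2 scale (standard error 0.176, adjusted p = 5.3e-05), or 2.91-fold with a 95% interval from 2.24 to 3.80. The ratio of FZD8 to FZD5 on the TPM scale was 1.52 ± 0.164 in MC-F7 and 1.36 ± 0.158 in MT-F7, and its ranges overlapped. Together the pair had 7.06 ± 0.801 TPM in MC-F7 and 22.7 ± 1.29 TPM in MT-F7.

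FZD1, FZD2 and FZD7 are close relatives, and FZD7 is known as a main Wnt receptor of human pluripotent stem cells. FZD1 (445417) had 17.6, 14.2 and 13.6 CPM in MC-F7 and 33.3, 29.5 and 31.8 CPM in MT-F7. All MT-F7 libraries were well above the MC-F7 range. It rose by 1.06 on the log2 scale (standard error 0.164, adjusted p = 5.5e-04), or 2.09-fold with a 95% interval from 1.63 to 2.67.

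FZD2 (538507) had 408, 356 and 315 CPM in MC-F7 and 296, 278 and 249 CPM in MT-F7. No MT-F7 library reached the MC-F7 range, but the highest of them was close to the lowest MC-F7 library. The log2 fold change of -0.39 (standard error 0.157) had an unadjusted p of 0.028 and an adjusted p of 0.093, and so did not pass. Its 95% interval ran from -0.73 to -0.05 and thus held no change over 1 in size. Without MC-F7 replicate 3 the log2 fold change was -0.48 and it passed (adjusted p = 0.043), and without the genes of the mitochondrial genome it did not (adjusted p = 0.090). In both groups replicate 3, which had the highest mitochondrial share, had the lowest FZD2.

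FZD7 (524255) had 17.7, 23.8 and 16.6 CPM in MC-F7 and 13.7, 21.3 and 23.0 CPM in MT-F7. The lowest and the second highest of the 6 values were both in MT-F7. The log2 fold change was -0.0035 (standard error 0.216, adjusted p = 0.99) with a 95% interval from -0.47 to 0.46, which spans from 1.39-fold lower to 1.38-fold higher. Its sign was not stable, and it was 0.17 without MC-F7 replicate 2 and 0.18 without MT-F7 replicate 1. Of these 3 relatives, FZD1 alone passed the test, and the difference between the relatives was not tested. On the TPM scale the ratio of FZD1 to FZD7 was 0.427 ± 0.107 in MC-F7 and 0.92 ± 0.318 in MT-F7, and every MT-F7 library was higher.

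**Figure D2:**
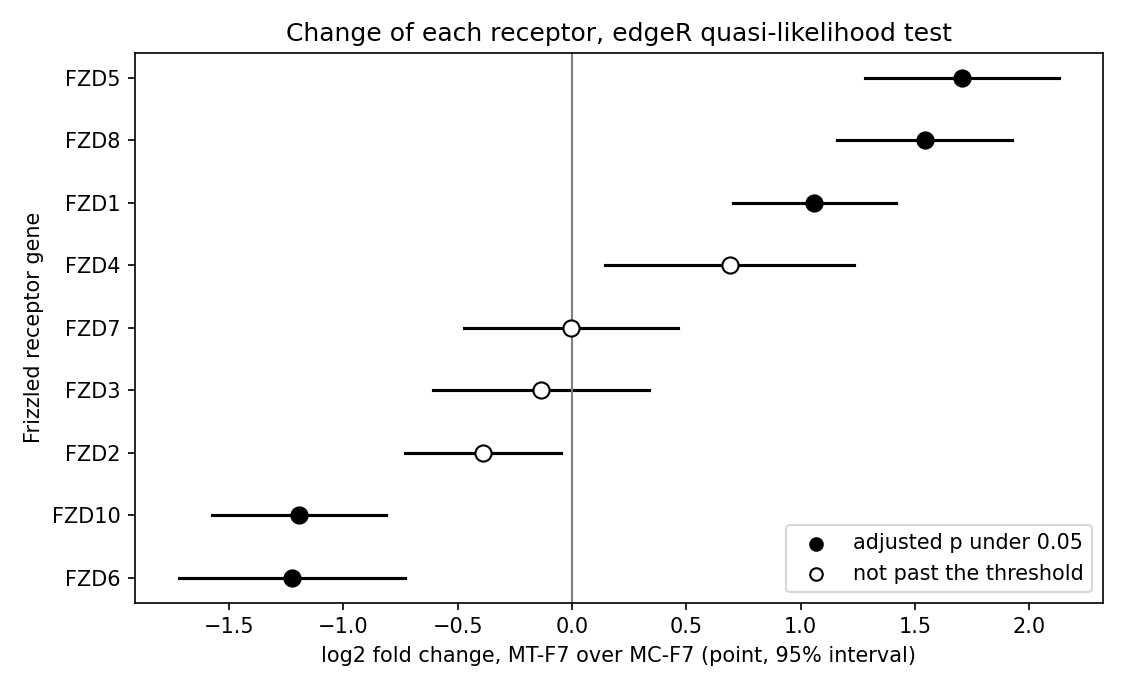
log2 fold change of MT-F7 over MC-F7 for each receptor with its 95% interval, filled where the adjusted p was under 0.05. FZD5, FZD8 and FZD1 lie between 1.06 and 1.7, FZD10 and FZD6 near -1.2, and the interval of FZD7 is centred on 0.

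FZD10 and FZD4 belong to the same branch of the family. FZD4 also binds norrin, a ligand that is not a Wnt, and is known from the growth of retinal vessels. FZD10 (515323) had 26.2, 24.8 and 26.7 CPM in MC-F7 and 13.7, 9.93 and 10.3 CPM in MT-F7. The MC-F7 libraries were nearly equal, and all MT-F7 libraries were far below them. Its log2 fold change was -1.19 (standard error 0.176, adjusted p = 3.7e-04), which means that MC-F7 was 2.29-fold higher with a 95% interval from 1.76 to 2.98.

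FZD4 (445416) had 2.61, 2.61 and 2.20 CPM in MC-F7 and 3.71, 3.82 and 4.46 CPM in MT-F7. The groups did not overlap, but the MC-F7 values rest on only 59, 63 and 47 counts. The fitted change of 0.69 (log2, standard error 0.252) had an unadjusted p of 0.017 and an adjusted p of 0.066, above the threshold. The 95% interval from 0.14 to 1.23 is wide. It stayed above the threshold in all 6 fits that left out 1 library, and passed in 4 of the 11 other alternatives.

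FZD3 and FZD6 are known above all for planar polarity, FZD3 in axon growth and FZD6 in the orientation of hair. FZD6 (445418) had 6.99, 8.91 and 8.37 CPM in MC-F7 and 3.78, 2.74 and 3.86 CPM in MT-F7. All MT-F7 libraries were far below the lowest MC-F7 library. FZD6 fell, and its log2 fold change was -1.22 (standard error 0.228, adjusted p = 0.0020), with MC-F7 2.34-fold higher (95% interval 1.66 to 3.29). MT-F7 had 95, 71 and 91 counts.

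FZD3 (445419) had 21.9, 21.1 and 14.6 CPM in MC-F7 and 19.3, 20.5 and 12.5 CPM in MT-F7. Replicate 3 was the lowest library of both groups, and the spread within a group was larger than the difference between groups. The log2 fold change was -0.14 (standard error 0.219, adjusted p = 0.70, 95% interval -0.61 to 0.34), and without MT-F7 replicate 3 it was 0.048. The ratio of FZD3 to FZD6 on the TPM scale was 3.58 ± 1.03 in MC-F7 and 7.84 ± 3.16 in MT-F7, with every MT-F7 library higher.

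The per-length values add up to the receptor repertoire of each library. The sum over the 9 receptors was 333, 315 and 258 TPM in MC-F7 and 285, 278 and 234 TPM in MT-F7. These ranges overlapped. FZD2 made up 84.2%, 81.5% and 81.6% of the sum in the MC-F7 libraries and 76.8%, 76.1% and 73.8% in the MT-F7 libraries. Its share was thus lower in every MT-F7 library. Without FZD2 the sum was 52.5, 58.3 and 47.3 TPM in MC-F7 and 66.1, 66.4 and 61.4 TPM in MT-F7, higher in every MT-F7 library.

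**Figure D3:**
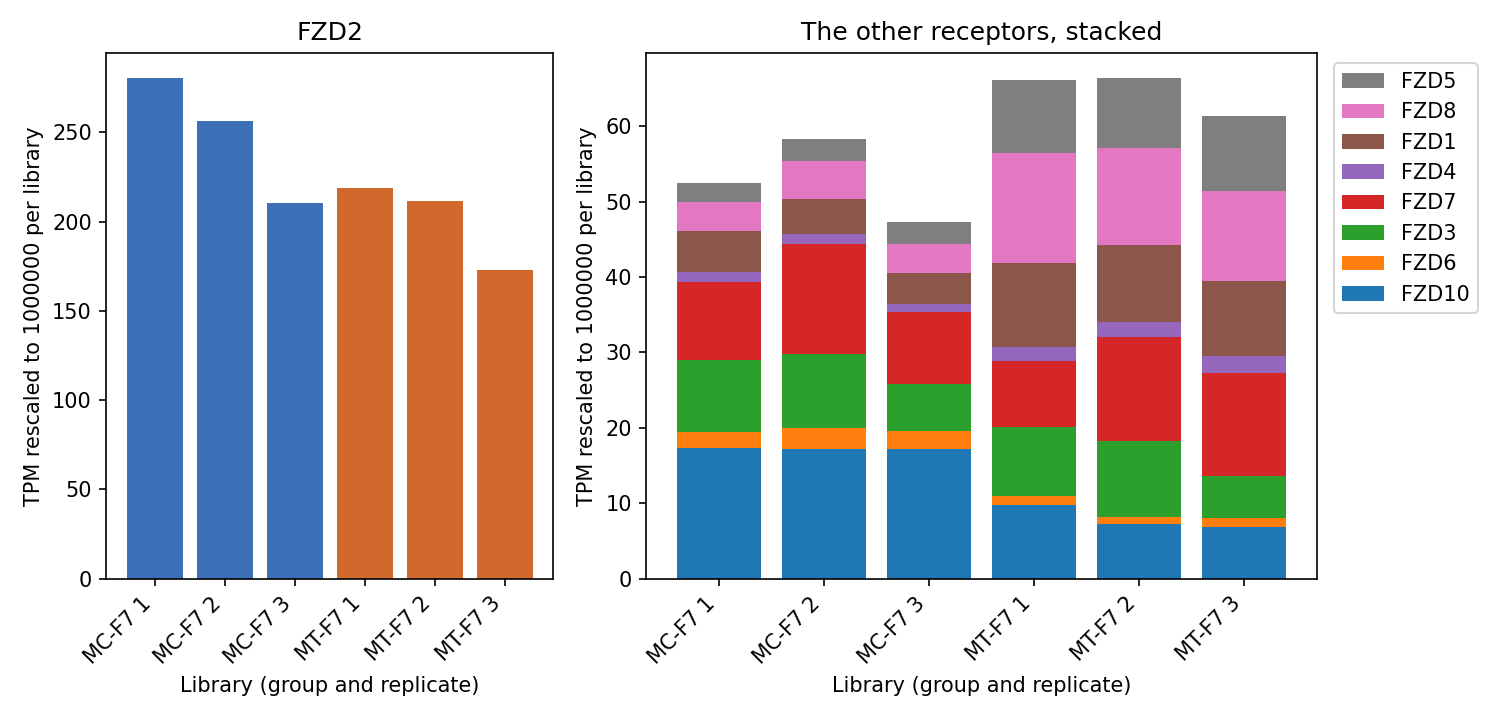
Per-length level (TPM rescaled to 1000000 per library) of FZD2, left, and of the other 8 analysed receptors stacked, right, in each library. The stack without FZD2 is 47.3 to 58.3 TPM in MC-F7 and 61.4 to 66.4 TPM in MT-F7, and FZD10 is the largest block in every MC-F7 library. In MT-F7 the block of FZD10 is smaller and those of FZD8, FZD1 and FZD5 are larger than in MC-F7, with FZD8 the largest in replicate 1 and FZD7 the largest in replicates 2 and 3.

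The share of each receptor in that smaller pool was computed as well. FZD10 took 32.9% ± 3.38 (SD, n = 3) of it in MC-F7 and 12.3% ± 2.14 in MT-F7. FZD8 took 8.07% ± 0.582 and 20.3% ± 1.5, and FZD5 took 5.34% ± 0.718 and 14.9% ± 1.22. FZD1 took 9.03% ± 1.27 and 16.2% ± 0.757. FZD4 took 2.28% ± 0.110 and 3.17% ± 0.330, and FZD6 took 4.61% ± 0.593 and 1.69% ± 0.291. The share of each of these genes did not overlap between the groups, while those of FZD3 and FZD7 did. The ratio of FZD8 to FZD10 was 0.225, 0.289 and 0.228 in the MC-F7 libraries and 1.49, 1.77 and 1.73 in the MT-F7 libraries, and thus the order of this pair was turned in every library. The ratio of FZD5 to FZD6 was 1.16 ± 0.0774 in MC-F7 and 8.94 ± 1.15 in MT-F7. These shares follow from the same libraries as the changes above and are given as a description.

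For FZD2, the most abundant receptor, and FZD5, the called receptor with the largest change, the genes with the most similar pattern were sought. The measure was the root mean square difference of the log2 CPM values, centred on each gene's mean, over the 6 libraries and 13000 other tested genes. The genes nearest to FZD2 were LARP6 (0.0394), COG8 (0.0396) and ACTN1 (0.0414), and none of these 3 passed the test. The nearest receptor was FZD3, at rank 2548. The genes nearest to FZD5 were BANP (0.0954), PLCL2 (0.105) and NCAN (0.125), which had log2 fold changes of 1.51, 1.74 and 1.53. FZD8 followed at rank 17 with a difference of 0.152, and FZD1 at rank 399. This order is a description with no test.

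Genes that work with the receptors at the membrane, and SMO as a relative of the frizzleds, were taken from lists of the pathway. Each list count below stands against the 23.2% of all tested genes that were called, 11.9% higher and 11.3% lower. No list was tested as a set. Of 10 co-receptors and partners, all were tested, 3 rose and none fell, and the median log2 fold change was 0.22. They were ADGRA2 (log2 fold change 1.44, adjusted p = 0.0020), which works with RECK as a Wnt co-receptor, TSPAN12 (0.80, adjusted p = 0.012), a partner of FZD4, and SMO (0.60, adjusted p = 0.013), a relative of the frizzleds that transduces Hedgehog signals. LRP5, LRP6, ROR1, ROR2, RYK, PTK7 and RECK did not pass, and their log2 fold changes ran from -0.17 for LRP6 to 0.54 for ROR1. Without MC-F7 replicate 2, ADGRA2 (adjusted p = 0.013) was still past the threshold, and TSPAN12 (0.073) and SMO (0.074) were not. TSPAN12 also did not pass without MT-F7 replicate 2 (0.065).

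The amount of frizzled protein at the surface is known to be lowered by the ubiquitin ligases RNF43 and ZNRF3, which R-spondins restrain through the LGR receptors. Of 9 genes of this group 8 were tested, 3 rose and 1 fell. LGR4 rose from 53.0 ± 10.1 to 121 ± 15.2 CPM (log2 fold change 1.2, adjusted p = 3.2e-04). LGR5 rose from 8, 4 and 4 counts to 43, 42 and 58 (log2 fold change 3.01, adjusted p = 5.7e-04), and RSPO3 had a log2 fold change of 1.56 (adjusted p = 0.0034). LGR6 fell, with a log2 fold change of -1.81 (adjusted p = 0.0051) from 36, 46 and 47 counts to 10, 15 and 15. RNF43 (0.01, adjusted p = 0.99) and ZNRF3 (-0.07, adjusted p = 0.89) had changes smaller than their standard errors of 0.374 and 0.305.

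Few ligand genes had enough counts to be tested. Of 20 genes, the Wnt genes and NDP (norrin), 6 were tested and 14 had too few counts. WNT5B rose from 5.87 ± 0.749 to 28.6 ± 3.77 CPM (log2 fold change 2.28, adjusted p = 4.0e-06), and WNT7B fell from 4.89 ± 0.0689 to 2.10 ± 0.399 CPM (-1.21, adjusted p = 0.0043). Summed over the list, the ligands had 15.1 to 17.7 CPM in MC-F7 and 37.2 to 43.9 CPM in MT-F7. In CPM, nearly all of this difference was WNT5B. Without WNT5B the sums were 10.01 to 11.8 CPM and 11.3 to 12.0 CPM, and overlapped. CPM are not per length, so this overlap need not hold per length. WNT5A (log2 fold change 1.12, adjusted p = 0.063) and NDP (1.03, adjusted p = 0.066) did not pass. Their groups did not overlap in CPM, as in 40% of all tested genes. WNT2B (0.48) and WNT16 (0.98) did not pass either, and their groups overlapped.

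Several other proteins carry a cysteine-rich domain like that of the frizzleds, and the secreted SFRP proteins and FRZB are known to bind Wnt with it. Of 9 such genes 8 were tested, 3 rose and 2 fell. This list is labelled as secreted proteins, although MFRP and CORIN in it are membrane proteins. FRZB rose from 1.37 ± 0.888 to 15.5 ± 3.38 CPM (log2 fold change 3.5, adjusted p = 2.1e-05), SFRP2 from 136 ± 26.6 to 611 ± 38.7 CPM (2.17, adjusted p = 4.2e-06) and SFRP1 from 264 ± 53.0 to 433 ± 28.8 CPM (0.71, adjusted p = 0.0099). The 2 that fell were COL18A1, a collagen with a frizzled domain in its long form (-0.88, adjusted p = 0.014), and CPZ, a carboxypeptidase (-0.61, adjusted p = 0.049). Without MT-F7 replicate 1 and without MT-F7 replicate 2 the count of calls in this list was 3. Among the fits with 1 library left out, CPZ passed only without MT-F7 replicate 3. COL18A1 did not pass without MT-F7 replicate 1 (adjusted p = 0.065) or MT-F7 replicate 2 (0.067). FRZB, SFRP2 and SFRP1 passed in each of these fits.

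Inside the cell, 16 genes of dishevelled and core transduction were all tested, and 3 rose and 2 fell. APC2 (log2 fold change 1.04, adjusted p = 0.0080), DVL2 (0.65, adjusted p = 0.013) and DVL3 (0.49, adjusted p = 0.046) rose, and the kinases CSNK1A1 (-0.84, adjusted p = 0.0020) and CSNK1D (-0.47, adjusted p = 0.027) fell. This count depended on single libraries. It was 3 without MC-F7 replicate 1, MC-F7 replicate 2 or MT-F7 replicate 2, 2 without MT-F7 replicate 1 and 8 without MT-F7 replicate 3. Among these fits with 1 library left out, DVL3 passed only without MC-F7 replicate 3. CSNK1D passed only without MC-F7 replicate 3 and without MT-F7 replicate 3. DVL2 did not pass without MT-F7 replicate 1 (adjusted p = 0.056). APC2 and CSNK1A1 passed in each of these fits. TNKS and TNKS2, the tankyrases that IWR1 inhibits, did not pass (log2 fold changes -0.66 and 0.70, adjusted p = 0.086 and 0.12).

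Of 17 planar cell polarity genes with counts, 16 were tested, 5 rose and 1 fell. MAPK10 (log2 fold change 2.07, adjusted p = 2.3e-05), ANKRD6 (0.90, adjusted p = 0.0032), CELSR2 (0.73, adjusted p = 0.015) and MAPK9 (0.95, adjusted p = 0.023) had the smallest adjusted p among those that rose. PRICKLE3 fell (-1.06, adjusted p = 0.0039). With 1 library left out, the calls in this list ran from 4 to 6. MAPK9 did not pass without MC-F7 replicate 1 (adjusted p = 0.067), MT-F7 replicate 1 (0.078) or MT-F7 replicate 3 (0.064). CELSR2 did not pass without MC-F7 replicate 2 (0.075). MAPK10, ANKRD6 and PRICKLE3 passed in each of these fits. VANGL1 and VANGL2, the core polarity proteins that pair with FZD3 and FZD6, did not pass (-0.39 and 0.03, adjusted p = 0.50 and 0.95).

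Genes known as targets or feedback regulators of beta-catenin moved in both directions. Of 24 such genes 20 were tested, 4 rose and 2 fell, and the median log2 fold change was -0.02. DKK1 was at 0 in every MC-F7 library and had 162, 267 and 132 counts in MT-F7. LEF1 rose from 0.814 ± 0.168 to 5.66 ± 0.860 CPM (log2 fold change 2.8, adjusted p = 3.0e-05), LGR5 is given above, and NKD2 had a log2 fold change of 0.52 (adjusted p = 0.041). NOTUM (-1.67, adjusted p = 0.025) and APCDD1 (-1.16, adjusted p = 0.045) fell, and the groups overlapped in APCDD1. AXIN2, the feedback gene most used as a readout, had 5.42 ± 1.68 CPM in MC-F7 and 5.24 ± 0.794 CPM in MT-F7 (log2 fold change -0.05, adjusted p = 0.92). The count of calls was 3 without MC-F7 replicate 2 and 3 without MT-F7 replicate 1. Among the fits with 1 library left out, NKD2 passed only without MC-F7 replicate 3. NOTUM and APCDD1 passed only without MC-F7 replicate 1 and without MT-F7 replicate 3. DKK1, LEF1 and LGR5 passed in each of these fits.

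**Figure D4:**
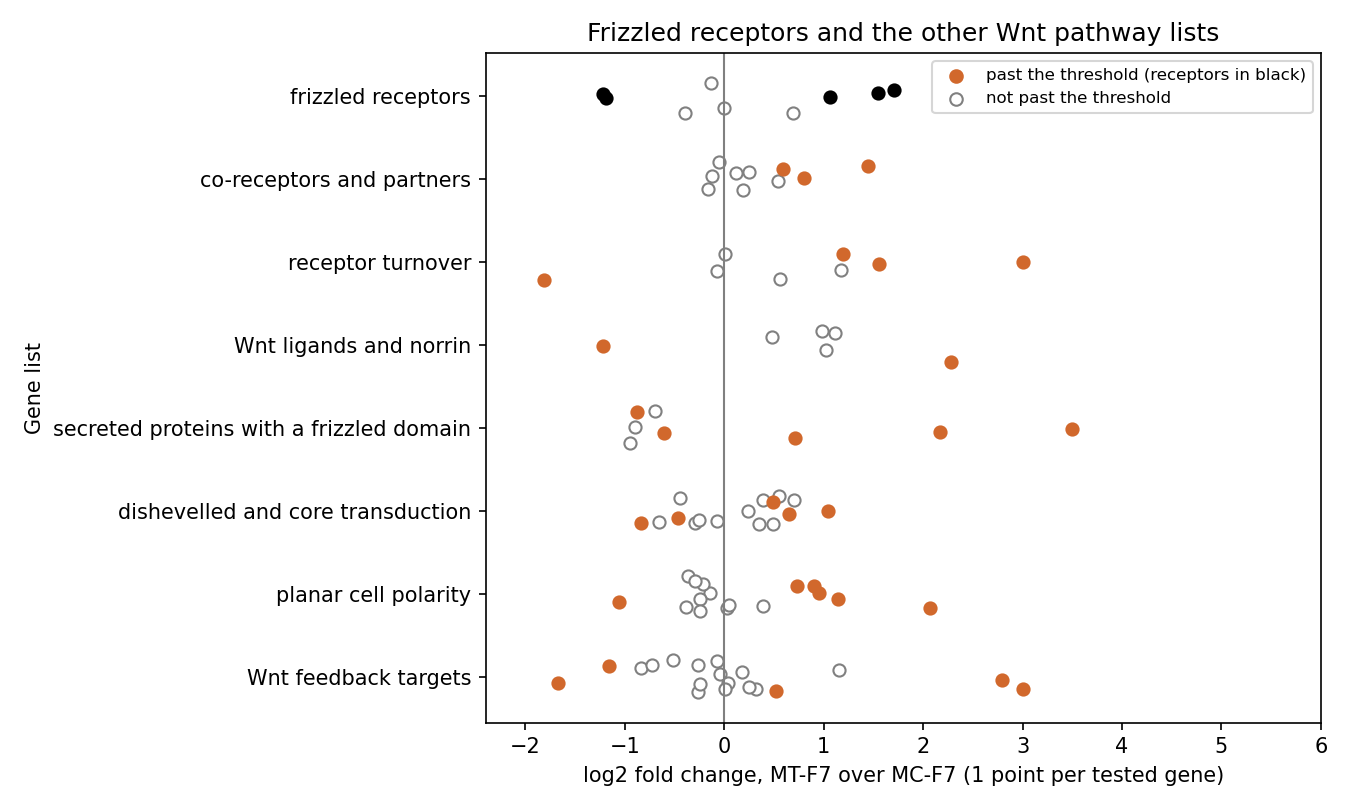
log2 fold change of MT-F7 over MC-F7 for every tested gene of each Wnt pathway list, with the receptors in the top line and filled points for an adjusted p under 0.05. DKK1, with 0 counts in all MC-F7 libraries, is not drawn. Called genes lie on both sides of 0 in every list but the co-receptors and partners, where the 3 called genes, SMO among them, rose.

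Markers of other cell types moved between the groups beside the receptors. Of all tested genes, 11.9% rose and 11.3% fell. Of 9 tested neural genes 6 rose and none fell, and the list's summed level was 606 to 699 CPM in MC-F7 and 1318 to 1459 CPM in MT-F7. LHX2 (log2 fold change 3.23), SIX6 (3.53), PAX6 (2.92) and RAX (2.98), known from the eye field, had the smallest adjusted p of this list. No neural marker in the count table was at 0 in every library, but NEUROG2 (0, 11 and 5 counts in MC-F7) was at 0 in every MT-F7 library and DCX (6, 4 and 6 counts in MT-F7) in every MC-F7 library. Of 15 tested fibroblast genes 5 rose and 1 fell, with a summed level of 413 to 508 CPM in MC-F7 and 816 to 891 CPM in MT-F7. FBLN1 (log2 fold change 1.6), COL3A1 (1.65), COL5A1 (0.79) and POSTN (1.24) had the smallest adjusted p of those that rose, and TWIST2 fell (-2.15). FBLN1 made up the largest part of the difference in the sum, which without it was 329 to 393 CPM in MC-F7 and 498 to 541 CPM in MT-F7. FAP, which had too few counts to be tested (0, 9 and 7 in MC-F7), was at 0 in every MT-F7 library. Both tested mesendoderm genes fell, EOMES and FOXA2, and CER1 and GATA4 were at 0 in all libraries. The part of these cell types in the receptor changes was not tested.

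**Figure D5:**
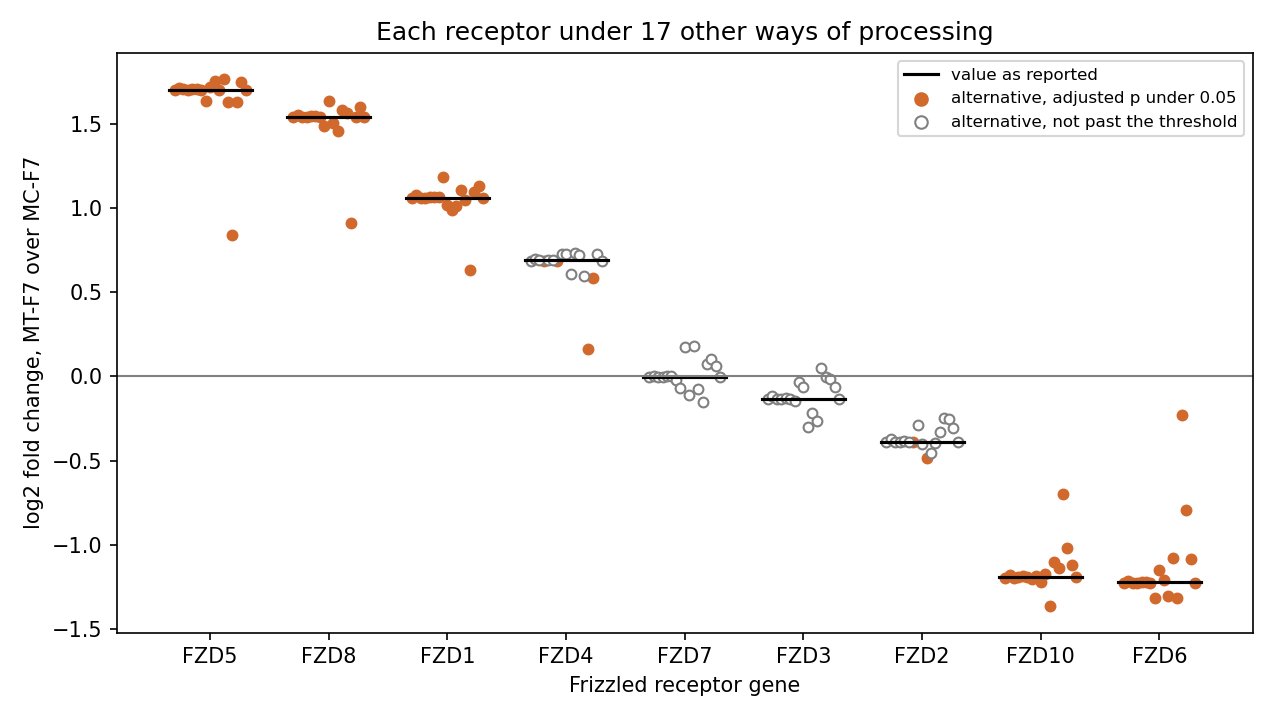
log2 fold change of each receptor as reported (black line) and under 17 other ways of processing (points, orange where the adjusted p was under 0.05). The points of FZD5, FZD8 and FZD1 all lie above 0 and those of FZD10 and FZD6 all below it, while FZD7 and FZD3 cross 0. For each receptor but FZD7 the point nearest to 0 comes from limma on the deposited TPM with a pseudocount of 1.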

How the data were processed

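Per the paper's methods and the submitters' processing notes, the authors filtered paired-end reads, mapped them with HISAT2 2.0.5 to the cattle genome of Ensembl and counted them with featureCounts 1.5.0-p3. The genome build and the strand setting are not given in the sources used here. They deposited raw counts per Entrez gene and a second table that they call TPM. The deposited TPM were in 1 ratio to the counts in all libraries (within 0.1%) for 9639 of the 9641 genes whose lowest count was 50 or more, and so still held library size. They were therefore rescaled to 1000000 per library. RefSeq (ARS-UCD2.0) gave symbols for 19074 of 19163 identifiers. No coordinates or sequences were used.

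Low genes were removed by filterByExpr (10 as the minimum count, 15 as the minimum total), and counts were normalised by TMM (factors 0.971 to 1.04) and tested with the quasi-likelihood test of edgeR 4.0.16 in R 4.3.3, without a block. CPM are TMM-scaled. The standard error is the absolute log2 fold change divided by the square root of F. On simulated counts of this comparison, with 13018 genes tested, 85% of 100 genes changed by 1 and 100% of 100 genes changed by 2 (log2) were recovered, and 6.09% of the calls were false. The simulation gave every gene the same dispersion. It changed only genes with higher counts, and far fewer genes than the 3016 called in the data. These percentages therefore do not carry over to low genes or to the calls reported here. An exact permutation test of 3 against 3 cannot give a p under 0.1, so none was used. The receptors, lists and alternatives were chosen with earlier results of these data known. All 10 receptors were named, and in each list up to 4 called genes per direction with the smallest adjusted p. Other list genes (the uncalled ones, among them AXIN2, RNF43, ZNRF3, TNKS and VANGL2) were named after their values were seen. DESeq2 1.42.0 and limma 3.58.1 served as alternatives. The values of 1 neural marker are not reported here.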

Additional observations from a re-analysis of the deposited data

How the results depend on the processing

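The counts of receptors that rose (3) and fell (2) stayed within 1.5 times under every alternative tried: RLE factors, library size only, DESeq2, edgeR's likelihood ratio test, a filter of 1 count in all or of 10 counts per library, the replicate block, each library left out, limma on log2(TPM + 1), on log2(TPM + 0.1) and on the rescaled TPM, and removal of mitochondrial genes. With 1 library left out they were 3 to 3 and 2 to 3. FZD2 passed with the replicate block and without MC-F7 replicate 3, and FZD4 passed with the likelihood ratio test, with the block and with limma on the deposited TPM with either pseudocount. The sign turned for FZD7 with library size only (0.0043), the filter of 1 count (0.0010), the filter of 10 (1.9e-05), limma (0.074, 0.11 and, rescaled, 0.061), and without MC-F7 replicate 2 (0.17) or MT-F7 replicate 1 (0.18), and for FZD3 without MT-F7 replicate 3 (0.048). Over the fits without 1 library, the log2 fold change ran from -0.15 to 0.18 for FZD7 and from -0.30 to 0.048 for FZD3. The causes were not tested, except that a pseudocount of 1 shrinks low genes by construction.

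Deviations of libraries with the same replicate number had correlations across genes of 0.134, 0.0445 and 0.417, and 2 of 6 libraries correlated best with their own number, so the numbers were not taken as pairs. With the replicate block, 4674 genes of all and 10 of dishevelled and core transduction were called, and 4 receptors rose and 3 fell. Wnt ligands gave 4 calls with the likelihood ratio test and with each limma fit, secreted proteins gave 3 with limma on the deposited TPM, and feedback targets gave 2 with the filter of 10 counts. Leaving out 1 library gave 1914 to 3093 calls over all genes (1914 without MC-F7 replicate 2), 1 to 3 for co-receptors, 2 to 8 for dishevelled and core transduction, 3 to 5 for secreted proteins and 3 to 6 for feedback targets. Not rescaled, the deposited TPM summed over the receptors to 47.9 in MC-F7 and 43.6 in MT-F7.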
